A study of Rattus norvegicus with 12 samples.

Results

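The hypothalamic transcriptome of rats sampled 3 h after acute corticosterone, the main glucocorticoid of the rat, was compared with that of sham-operated rats. The comparison used 4 of the 12 libraries of the study: both libraries titled acute Cort (1) 3 h and both titled sham-ADX. The members were the 12856 genes with enough fragments to be tested, of 17310 in the files. All 12 libraries came from wild-type male Wistar rats aged 12 weeks, and the tissue was the hypothalamic region that contains the paraventricular nucleus (PVH). The other groups used here, 2 libraries each, were rats sampled 1 h after acute corticosterone (acute Cort (1) 1 h) and adrenalectomised rats given corticosterone (ADX + Cort suppl, here supplemented ADX). Rats 7 days after adrenalectomy (7-day ADX) and rats given high corticosterone for 12 days (12-day high Cort) entered the fit only. Nothing in the labels tells if the rats given acute corticosterone still had their adrenal glands, what dose or vehicle they received, or if a library was 1 animal or a pool. No vehicle group sampled at 3 h was analysed here, so sham differs from the 3 h group in more than the hormone.

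The PVH holds neurons that secrete corticotropin-releasing hormone and vasopressin to drive pituitary release of corticotropin, and with it adrenal release of corticosterone. Corticosterone acts back on the brain through the glucocorticoid and mineralocorticoid receptors, which are transcription factors, and restrains this axis. Textbook transcriptional targets of the glucocorticoid receptor include Fkbp5, Tsc22d3, Sgk1 and Per1.

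The sham libraries held 25724232 and 27797278 fragments and the 3 h libraries 20684695 and 22003888, within the range of 17674159 to 36249006 over the 12. Levels are given as counts scaled to the library total with a correction factor for each library (CPM). They are listed for replicate 1 and then replicate 2, and compare libraries but not genes of unlike length. Differences are log2 fold changes of 3 h over sham ± SE with n = 2 libraries a group. Genes with an adjusted p under 0.05 in edgeR's quasi-likelihood test, with Benjamini-Hochberg adjustment, count as called. Such p values reflect the spread among these libraries alone, and that may be technical. Permuting 4 libraries could not reach a p below 0.333. The PVH genes Avp, Oxt, Crh, Trh, Sim1 and Otp were detected in all 4 libraries. The sham libraries were summarised by the authors in another run of their quantification program than the 3 h libraries, so run and group cannot be told apart in this comparison, whereas the 3 h, 1 h and supplemented ADX libraries shared a run.

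The libraries also differed in markers of the thalamus, which lies beside the dissected region. The summed level of 15 thalamus markers was 1728 and 2301 CPM in sham against 1133 and 1094 CPM at 3 h, and none of the 15 was at 0 in any of the 12 libraries. The mean log2 CPM of the list, called the thalamus score here, was 5.72 and 6.28 in sham and 5.08 and 5.19 at 3 h. It was 5.60 and 5.58 in supplemented ADX and 5.25 and 4.48 at 1 h. The sham and 3 h libraries did not overlap on this score, and sham replicate 2 had the highest score of the 12 libraries. Astrocyte markers, by contrast, stood at nearly the same mean level in every library. In tissue pieces, fewer cells of a type and less RNA per cell cannot be told apart.

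**Figure D1:**
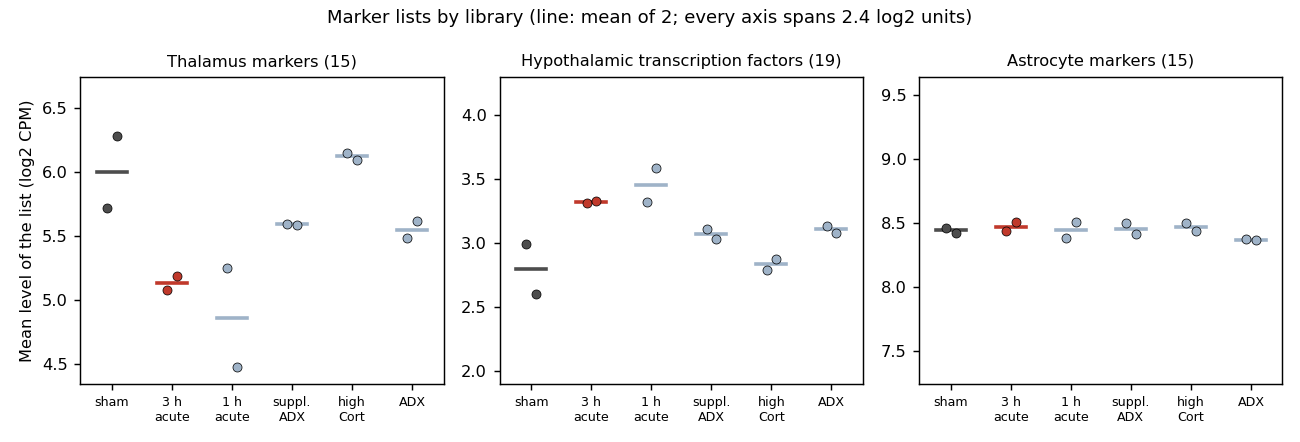
Mean log2 CPM of 3 marker lists in each of the 12 libraries (points; the line is the mean of 2), for thalamus markers, hypothalamic transcription factors and astrocyte markers; the vertical axes all span the same log2 range. On the thalamus axis the sham libraries lie at 5.72 and 6.28 and the 3 h libraries at 5.08 and 5.19, while the astrocyte points lie close together.

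Of 12856 genes, 1026 (7.98%) were called, 438 (3.41%) higher and 588 (4.57%) lower at 3 h, and 3217 had an unadjusted p under 0.05. Most differences were small: the median absolute log2 fold change of the called genes was 0.29, and 20 of them differed at least 2-fold, 8 higher and 12 lower. The 2 groups did not overlap in 6821 genes (53.1%), among them all 1026 called genes. The count of calls depended on single libraries: it was 75 without sham replicate 2, 109 without 3 h replicate 2, 514 without 3 h replicate 1 and 1038 without sham replicate 1. With the thalamus score as a covariate, 4 genes were called and 874 had an unadjusted p under 0.05. In that fit, the median absolute log2 fold change of the 1026 genes went from 0.29 to 0.17 and their median SE from 0.066 to 0.091, while 1023 of them kept their direction. The score was lower in both 3 h libraries than in both sham libraries, so it and the treatment were only partly separable. The thalamus markers themselves make up the score, so a shift of their own values toward 0 in that fit was partly fixed in advance.

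**Figure D2:**
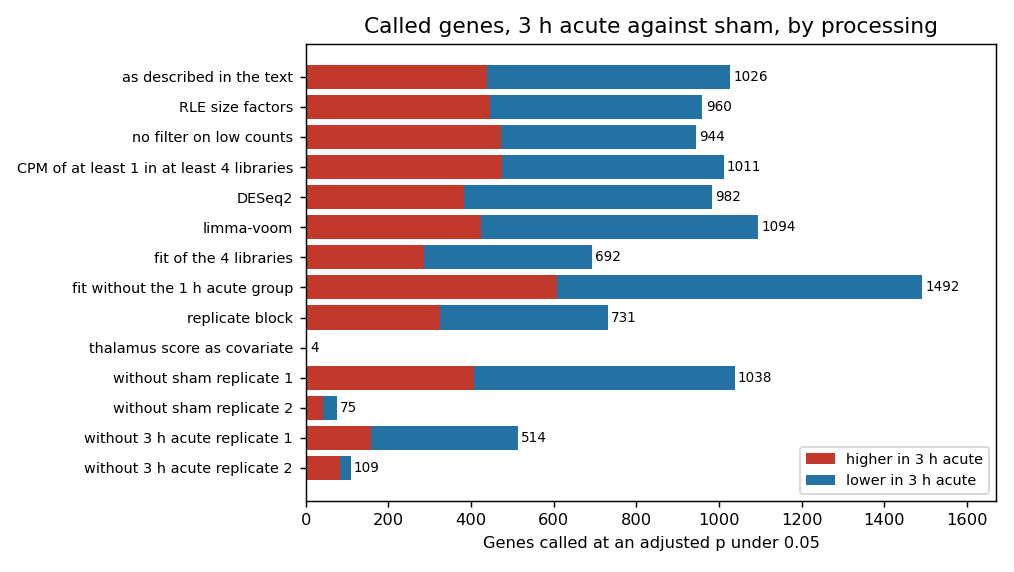
Number of genes called higher (red) and lower (blue) at 3 h against sham, by edgeR's quasi-likelihood test unless another tool is named, under each processing; the number beside each bar is the total. The count is 1026 as described in the text, 75 without sham replicate 2, 109 without 3 h replicate 2 and 4 when the thalamus score was a covariate.

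A smaller set of 44 called genes, 28 higher and 16 lower, stayed called in each of the 4 fits that left out 1 library. It included the peptide genes Penk and Gal, the transcription factor gene Dlx2, the clock gene Per2, the Egr corepressor gene Nab2 and the potassium channel genes Kcng1 and Kcnd2. It also included the sterol control gene Insig1 and the radial glia gene Fabp7. The peptidase gene Ecel1 and Tmem132e, chosen for mention after their values were seen, had the smallest adjusted p values together with Per2. Ecel1 stood at 78.6 and 79.2 CPM in sham and at 120 and 112 CPM at 3 h (0.56 ± 0.05, adjusted p = 0.000172). Of the 1026 called genes, Ecel1 was the 1 gene still called with the thalamus score as a covariate (0.54 ± 0.09, adjusted p = 0.0371). The other 3 genes called in that fit, Cd36, Lmx1b and Pax7, were not among the 1026. Within the run shared with supplemented ADX, Ecel1 stood at 93.2 and 92.5 CPM in that group, a difference of 0.32 ± 0.05 that did not pass (adjusted p = 0.0674).

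Some genes of the stress axis rose at 3 h. Of 16 tested peptide, receptor and processing genes of the axis, 6 rose and 1 fell (43.8%, beside 7.98% of all genes), with a median log2 fold change of 0.26 against -0.00 over all genes. In the fit of the 4 libraries alone, 2 rose and 1 fell. Avp encodes vasopressin, which acts with corticotropin-releasing hormone on the pituitary. Its level was 95.2 and 103 CPM in sham and 170 and 201 CPM at 3 h, so both treated libraries lay well above both sham libraries (0.90 ± 0.12, adjusted p = 0.00741). Crh, which encodes corticotropin-releasing hormone, rose from 10.5 and 13.5 CPM to 20.8 and 23.8 CPM (0.89 ± 0.21, adjusted p = 0.0357). Trh, which encodes the releasing hormone of the thyroid axis, rose from 62.5 and 71.3 CPM to 95.6 and 124 CPM (0.72 ± 0.13, adjusted p = 0.0193). These 3 differences each exceeded the spread between replicates. The groups did not overlap in any of them, as in 53.1% of all genes.

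Oxt, which encodes oxytocin, had overlapping groups: 221 and 383 CPM in sham, 326 and 415 CPM at 3 h (0.29 ± 0.26, adjusted p = 0.551). Among receptors, Crhr2, a receptor for the urocortins, rose from 2.39 and 2.71 CPM to 4.58 and 3.74 CPM (0.70, adjusted p = 0.0434). Adcyap1r1, the PACAP receptor gene, rose by 0.15 (adjusted p = 0.0418). Neither was called in the fit of the 4 libraries alone or with the replicate block, and Crhr2 was not by limma-voom either. Both also lost the call whichever library was left out. Over all fits the log2 fold change ran from 0.55 to 0.86 for Crhr2 and from 0.054 to 0.19 for Adcyap1r1. Ucn3, which encodes urocortin 3, rose from 0.275 and 1.32 CPM to 2.27 and 2.49 CPM (1.55, adjusted p = 0.0322). The sham libraries differed widely for Ucn3, and its log2 fold change was 0.85 without sham replicate 1 (adjusted p = 0.063) and 3.10 without sham replicate 2. It also lost the call without either 3 h library (adjusted p = 0.0907 and 0.18) and in the fit of the 4 libraries alone (adjusted p = 0.158). The member that fell was Pcsk2, which encodes a prohormone convertase, from 462 and 515 CPM to 374 and 366 CPM (-0.40, adjusted p = 0.00614).

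Single libraries decided part of these calls. For Crh the adjusted p was 0.0507 with no filter on low counts, 0.109 when either sham library was left out, 0.0819 without 3 h replicate 1 and 0.203 without 3 h replicate 2, with log2 fold changes from 0.73 to 1.09. Avp had 0.0508 without sham replicate 2 and was called without each other library, and Trh had 0.057 without sham replicate 1 and 0.0771 without sham replicate 2. The count for the list was 1 higher and 0 lower without sham replicate 2 and 2 higher and 0 lower without 3 h replicate 2. It was 2 higher and 1 lower without 3 h replicate 1, and 1 higher and 1 lower without sham replicate 1. With the thalamus score as a covariate no member was called, although the estimates stayed positive for Avp (1.10, adjusted p = 0.209), Crh (1.30, adjusted p = 0.286) and Trh (0.72, adjusted p = 0.692). Within the shared run, the same 3 genes were not called against supplemented ADX, with log2 fold changes of 0.35 ± 0.11 for Avp (adjusted p = 0.29), 0.43 ± 0.19 for Crh (adjusted p = 0.409) and 0.42 ± 0.13 for Trh (adjusted p = 0.27). Avp stood at 149 and 142 CPM and Crh at 14.3 and 18.9 CPM in supplemented ADX, between the sham and the 3 h levels.

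**Figure D3:**
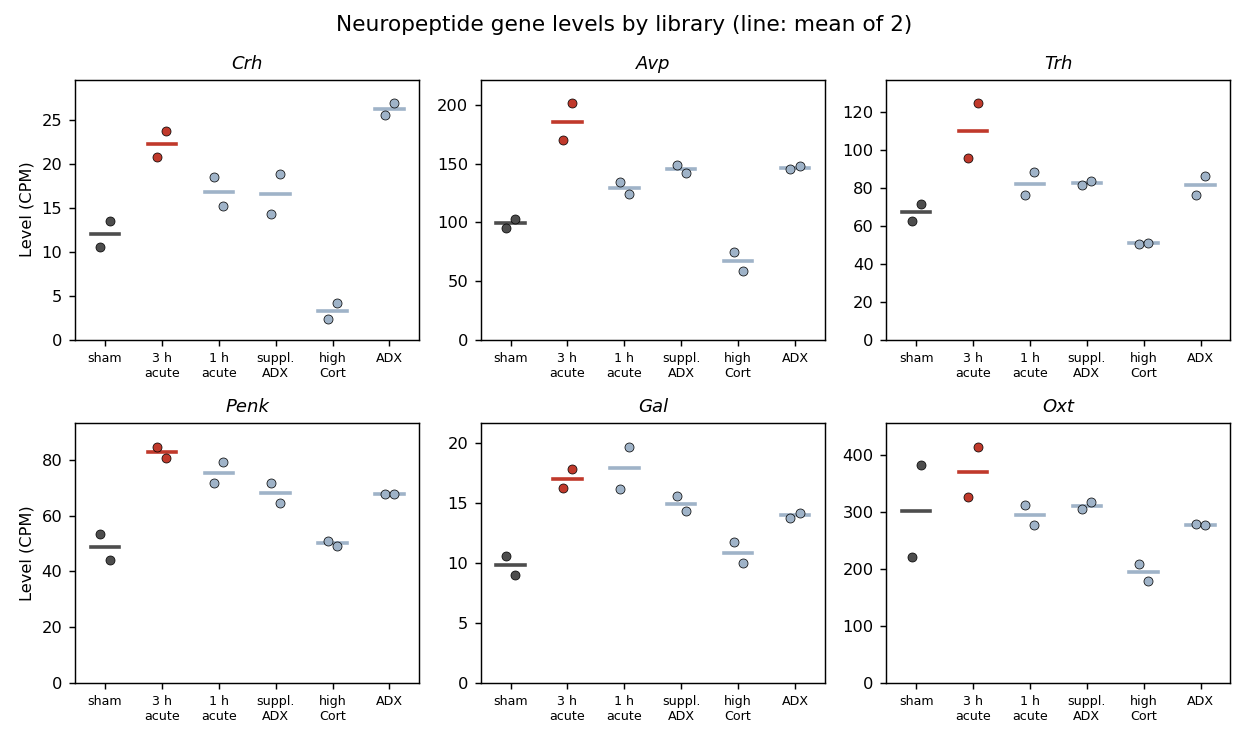
Levels in CPM (linear axis from 0) of the 6 neuropeptide genes Crh, Avp, Trh, Penk, Gal and Oxt in each of the 12 libraries (points), with the mean of 2 as a line. For Crh, Avp, Trh, Penk and Gal both 3 h libraries (red) lie above both sham libraries (grey), and for Oxt the groups overlap at 221 and 383 CPM against 326 and 415 CPM.

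The promoter window of Avp is shown, by a choice made after the values were seen, because the gene rose and its window held an E-box, the CACGTG element bound by clock proteins. The sequence is RefSeq's, on GRCr8, chr3:138248523-138248772, minus strand, the 250 bases before the gene's start, with the E-box in capitals at positions -165 to -160.
Avp: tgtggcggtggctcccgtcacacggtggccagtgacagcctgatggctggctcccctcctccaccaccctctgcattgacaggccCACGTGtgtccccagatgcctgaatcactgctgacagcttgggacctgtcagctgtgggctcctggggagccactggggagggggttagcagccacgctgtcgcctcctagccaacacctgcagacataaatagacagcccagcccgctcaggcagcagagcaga
Such a match is a description of letters in this window, and no binding was measured.

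Other neuropeptide and secretory granule genes were tested as well: of 24, 8 rose and 2 fell (41.7%, beside 7.98% of all genes), with a median log2 fold change of 0.23. In the fit of the 4 libraries alone, 5 rose and 1 fell. Penk, the enkephalin precursor gene, rose from 53.4 and 43.9 CPM to 84.8 and 80.5 CPM (0.77 ± 0.08, adjusted p = 0.00139). Gal, which encodes galanin, rose from 10.6 and 9.04 CPM to 16.2 and 17.9 CPM (0.80 ± 0.12, adjusted p = 0.00337). Both genes stayed called whichever library was left out, with adjusted p values from 0.000167 to 0.0172 for Penk and from 0.00319 to 0.0413 for Gal. The other genes that rose were Cartpt (0.48), Pmch, the gene for melanin-concentrating hormone of the lateral hypothalamus (0.45), Pdyn, the dynorphin precursor gene (0.44), and the granule protein genes Chga (0.23), Vgf (0.22) and Scg2 (0.19). The genes that fell were Vip, a peptide gene of the suprachiasmatic nucleus, from 3.45 and 6.44 CPM to 1.25 and 0.979 CPM (-2.16 ± 0.51, adjusted p = 0.0385), and Cpe, a peptide-processing enzyme gene (-0.22). The list had 3 higher and 0 lower without sham replicate 2, without 3 h replicate 1 it had 4 and 0, without 3 h replicate 2 it had 2 and 1, and without sham replicate 1 it had 10 and 2. Vip lost the call without sham replicate 2, where its adjusted p was 0.182, and without either 3 h library (adjusted p = 0.12 and 0.231). The thalamus score as a covariate left no member called. In that fit the log2 fold change was -0.48 for Vip and 0.52 for Penk (adjusted p = 0.0831). Against supplemented ADX, the log2 fold change was 0.28 ± 0.08 for Penk (adjusted p = 0.24) and 0.19 ± 0.11 for Gal (adjusted p = 0.506).

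Transcription factors that mark the PVH and its neighbouring hypothalamic nuclei had the highest share of calls of the lists described. Of 19 tested, 11 (57.9%) rose and 0 fell, with a median log2 fold change of 0.42, against 3.41% of all genes called higher. Fezf1, a factor of the ventromedial hypothalamus, rose from 2.00 and 2.09 CPM to 6.17 and 3.92 CPM (1.29 ± 0.26, adjusted p = 0.0134). The homeobox genes of forebrain GABA neurons Dlx2 (0.93 ± 0.13, adjusted p = 0.00279), Dlx5 (0.92) and Dlx1 (0.61) rose. Dlx2 stood at 3.92 and 3.81 CPM in sham and 7.71 and 7.03 CPM at 3 h, and stayed called whichever library was left out. Hmx3 (1.22), Hmx2 (1.15) and Isl1 (0.60), homeobox genes of hypothalamic neurons, rose too.

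The 3 factors that rose and are needed to form the neurosecretory cells of the PVH moved less: Otp from 26.9 and 33.6 CPM to 38.7 and 40.9 CPM (0.39, adjusted p = 0.0322), Pou3f2 by 0.26 (adjusted p = 0.0109) and Arnt2 by 0.23 (adjusted p = 0.0294). Sim1, the PVH factor at the head of the same program, was at 39.9 and 49.7 CPM in sham and 48.0 and 51.3 CPM at 3 h, with overlapping groups (0.15, adjusted p = 0.306). Vax1, an anterior hypothalamic factor outside the list, was among the genes with the highest fold change (1.13, adjusted p = 0.0167). The list had 3 calls without sham replicate 2, 3 without 3 h replicate 2, 4 without 3 h replicate 1 and 12 without sham replicate 1, all higher. By DESeq2, 5 of the 7 members given an adjusted p rose, and in the fit of the 4 libraries alone 6 of 19 did. Without sham replicate 2 the log2 fold change was 0.74 for Hmx2 (adjusted p = 0.325) and 0.14 for Arnt2 (adjusted p = 0.277), and without sham replicate 1 it was 0.24 for Otp (adjusted p = 0.135). None was called with the thalamus score as a covariate, where the list's median was 0.27. Against supplemented ADX the median was 0.24 and none was called.

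Some genes of thalamic and other neurons fell at 3 h. The log2 fold change was below 0 for each of the 15 thalamus markers, with a median of -0.91, and 2 of them fell (13.3%, beside 7.98% of all genes called). That count depended on the model: 9 of 13 fell by DESeq2, 11 of 15 by limma-voom, 11 in the fit without the 1 h group, 7 in the fit of the 4 libraries alone and 1 with no filter on low counts. The 2 that fell in the fit of all 12 libraries were Lef1, a factor of the Wnt pathway, from 40.7 and 49.3 CPM to 24.9 and 20.5 CPM (-0.99 ± 0.20, adjusted p = 0.0269), and Vav3, a guanine nucleotide exchange factor gene (-0.75 ± 0.17, adjusted p = 0.0398). Prkcd, which encodes protein kinase C delta, stood at 251 and 411 CPM in sham and 118 and 93.7 CPM at 3 h but did not pass (-1.65 ± 0.47, adjusted p = 0.0898), and Tcf7l2, a thalamic selector factor, did not either (-0.69 ± 0.24, adjusted p = 0.135). Both passed by limma-voom (adjusted p = 0.0132 and 0.0283) and in the fit without the 1 h group (0.0201 and 0.00547). Prkcd also passed by DESeq2 (0.0101) and Tcf7l2 in the fit of the 4 libraries alone (0.0333). Gabrd, which encodes the delta subunit of extrasynaptic GABA receptors, fell from 26 and 42.2 CPM to 11 and 11.8 CPM (-1.58 ± 0.36, adjusted p = 0.0487). Slc17a6, the vesicular glutamate transporter gene of subcortical neurons, fell from 517 and 605 CPM to 382 and 373 CPM (-0.57 ± 0.11, adjusted p = 0.0234). For each of these 4 genes that fell, sham replicate 2 was the highest of the 4 libraries. Gabrd was not called with RLE size factors, with no filter, in the fit of the 4 libraries alone or with the replicate block. Gabrd and Slc17a6 both lost the call whichever 3 h library was left out. Without sham replicate 2, 0 thalamus markers were called, and Gabrd (-1.19, adjusted p = 0.216) and Slc17a6 (-0.45, adjusted p = 0.132) lost the call. Without either 3 h library 0 thalamus markers were called, and without sham replicate 1 there were 4.

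Of 16 pan-neuronal markers, 4 fell (25%, beside 4.57% of all genes called lower), and 7 in the fit without the 1 h group. The 4 were the neurofilament genes Nefl (-0.33), Nefm (-0.33) and Nefh (-0.30), and Snap25 (-0.25), a gene of the synaptic release machinery. Of 38 potassium channel genes, 3 rose and 9 fell (31.6%, beside 7.98% of all genes), and 3 rose and 4 fell with no filter on low counts. Kcnd2, which encodes a subunit of the A-type current, fell from 244 and 267 CPM to 197 and 187 CPM (-0.42 ± 0.05, adjusted p = 0.00168), and Kcng1, a modifier subunit gene, rose from 5.81 and 6.48 CPM to 11.4 and 9.79 CPM (0.78 ± 0.12, adjusted p = 0.0037). Both stayed called whichever library was left out. Among the rest, Kcna1 (-0.75), Kcnj3 (-0.71) and Kcnq3 (-0.59) fell and Kcnh1 (0.41) rose. Of 38 glutamate and GABA receptor subunit genes, 1 rose and 4 fell (13.2%, beside 7.98% of all genes), and among those that fell were Grm7 (-0.30) and Gabbr2 (-0.43) besides Gabrd. The number of these subunit genes that fell was 11 by DESeq2, 9 by limma-voom, 10 in the fit without the 1 h group, and 2 with RLE size factors or with no filter. Without sham replicate 2 the channel list had 1 higher and 2 lower, without 3 h replicate 2 it had 2 and 1, and without 3 h replicate 1 it had 1 and 6. The receptor subunit and pan-neuronal lists had 0 calls without sham replicate 2. With the thalamus score as a covariate, none of the 3 lists had a call.

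Few textbook glucocorticoid-induced genes differed from sham at 3 h. Of 38 tested, 2 rose and 1 fell (7.89%, beside 7.98% of all genes), with a median log2 fold change of 0.10. Zbtb16, a zinc finger factor gene, rose from 14.5 and 11.7 CPM to 21.5 and 21.3 CPM (0.71 ± 0.18, adjusted p = 0.0441), and Nedd9, a scaffold protein gene, rose by 0.26 (adjusted p = 0.0416). Rhob, a small GTPase gene, fell (-0.35, adjusted p = 0.0234). Without sham replicate 2, without 3 h replicate 1 and without 3 h replicate 2, this list had 0 calls, and Zbtb16 had adjusted p values of 0.25, 0.138 and 0.196 in those fits.

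The best-known targets stood near sham. Fkbp5, whose product is a co-chaperone in glucocorticoid receptor complexes, was at 28.8 and 27.8 CPM in sham and 31.2 and 32.1 CPM at 3 h (0.16 ± 0.09, adjusted p = 0.293). Tsc22d3, the glucocorticoid-induced leucine zipper gene, was at 57.7 and 55.9 CPM against 57.8 and 59.2 CPM (0.04 ± 0.09, adjusted p = 0.816). Sgk1, a glucocorticoid-regulated kinase gene, was at 32.3 and 30.0 CPM against 29.4 and 29.6 CPM (-0.08 ± 0.14, adjusted p = 0.784). The period gene Per1, which carries glucocorticoid response elements, was at 40.2 and 48.7 CPM in sham and 49.8 and 51.9 CPM at 3 h (0.19 ± 0.08, adjusted p = 0.159). It stood at 82.5 and 87.4 CPM at 1 h, and the drop from 1 h to 3 h, within the shared run, passed the test (-0.74 ± 0.08, adjusted p = 0.00309).

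Among 15 receptors, chaperones and cofactors, 1 rose and 1 fell (13.3%, beside 7.98% of all genes). Nr3c1, the glucocorticoid receptor gene, fell from 221 and 236 CPM to 194 and 186 CPM (-0.26 ± 0.06, adjusted p = 0.0208). Nr3c2, the mineralocorticoid receptor gene, was at 48.4 and 49.0 CPM against 44.1 and 42.2 CPM and did not pass (-0.18, adjusted p = 0.0906). Nr3c1 lost the call without sham replicate 2 (-0.22, adjusted p = 0.185), without 3 h replicate 1 (adjusted p = 0.0546) and without 3 h replicate 2 (adjusted p = 0.178). Without sham replicate 2 this list had 0 calls.

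The clock genes included Per2, 1 of the 3 genes with the smallest adjusted p. Per2, a repressor of the circadian loop, was at 54.8 and 54.4 CPM in sham and 82.7 and 78.3 CPM at 3 h (0.56 ± 0.05, adjusted p = 0.000172), and Per3 rose by 0.28 (adjusted p = 0.0112). Per2 stayed called whichever library was left out, and its adjusted p was 0.0526 in the fit with the thalamus score (0.48). It was at 91.0 and 95.6 CPM at 1 h and at 71.4 and 68.8 CPM in supplemented ADX, and neither differed from 3 h past the threshold (-0.21, adjusted p = 0.178, for 3 h over 1 h, and 0.20, adjusted p = 0.188, for 3 h over supplemented ADX). Of 19 clock genes tested, 2 rose and 7 fell (47.4%, beside 7.98% of all genes), with a median log2 fold change of -0.06. The genes that fell were Ciart, a repressor of the loop, from 5.92 and 7.32 CPM to 4.53 and 3.74 CPM (-0.69 ± 0.16, adjusted p = 0.0211), the activator genes Npas2 (-0.55) and Arntl (-0.26), and the repressor genes Bhlhe40 (-0.40), Nr1d1 (-0.37) and Cry2 (-0.16), with Rorb (-0.32). The list had 1 higher and 0 lower without sham replicate 2, without 3 h replicate 2 it had 1 and 0, and without 3 h replicate 1 it had 2 and 2. Arntl lost the call whichever library was left out. Cry2 was not called with RLE size factors, no filter, DESeq2, the fit of the 4 libraries alone or the replicate block. With the thalamus score as a covariate no clock gene was called. Sampling time of day was not given in the sources used here.

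The promoter windows of Ciart and Per2 are shown because these genes had the largest fall and the largest rise among the clock genes and because each window held a clock element. Both sequences are RefSeq's on GRCr8, minus strand, the 250 bases before the start: chr2:186112247-186112496 for Ciart and chr9:99496994-99497243 for Per2. Capitals mark 3 E-boxes (CACGTG) in Ciart, starting at -93, -35 and -21, and 1 D-box (TTATGTAA), an element bound by PAR bZIP factors, starting at -192 in Per2.
Ciart: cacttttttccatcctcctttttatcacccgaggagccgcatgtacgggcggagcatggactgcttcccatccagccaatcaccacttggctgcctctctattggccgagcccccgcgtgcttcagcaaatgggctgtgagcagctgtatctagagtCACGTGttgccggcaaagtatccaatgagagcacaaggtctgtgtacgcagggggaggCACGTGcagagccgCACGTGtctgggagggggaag
Per2: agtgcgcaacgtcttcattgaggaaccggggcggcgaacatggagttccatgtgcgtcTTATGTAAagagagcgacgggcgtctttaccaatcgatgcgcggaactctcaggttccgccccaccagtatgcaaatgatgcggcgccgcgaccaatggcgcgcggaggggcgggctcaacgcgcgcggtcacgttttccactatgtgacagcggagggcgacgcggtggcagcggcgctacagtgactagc
The same elements were counted on both strands over the windows, from 250 bases before to 50 after the start, of the 350 genes called higher and 470 called lower that the RefSeq table held. The E-box was in 8.57% of windows of genes called higher and 8.09% of those called lower, beside 9.11% of tested genes with a window and 6.42% of all 33469 windows. The D-box was in 2 windows of genes called higher (0.571%) and in 0 of those called lower, beside 0.453% of tested genes and 0.893% of all windows. The full palindrome of the glucocorticoid response element was in no window of a called gene and in 0.0149% of all windows, and the cAMP response element (TGACGTCA) was in 3.43% and 3.83%, beside 3.11% of tested genes. The palindrome was in 0 of the 10365 tested genes with a window, so no called gene could have held it. Its absence therefore cannot set called genes apart from other tested genes. A relaxed form of that element, with fewer fixed letters, was in 0.251% of tested genes with a window. It was in 1 window of a gene called higher (0.286%) and in 0 of those called lower. No match says only that these letters are not in this window.

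**Figure D4:**
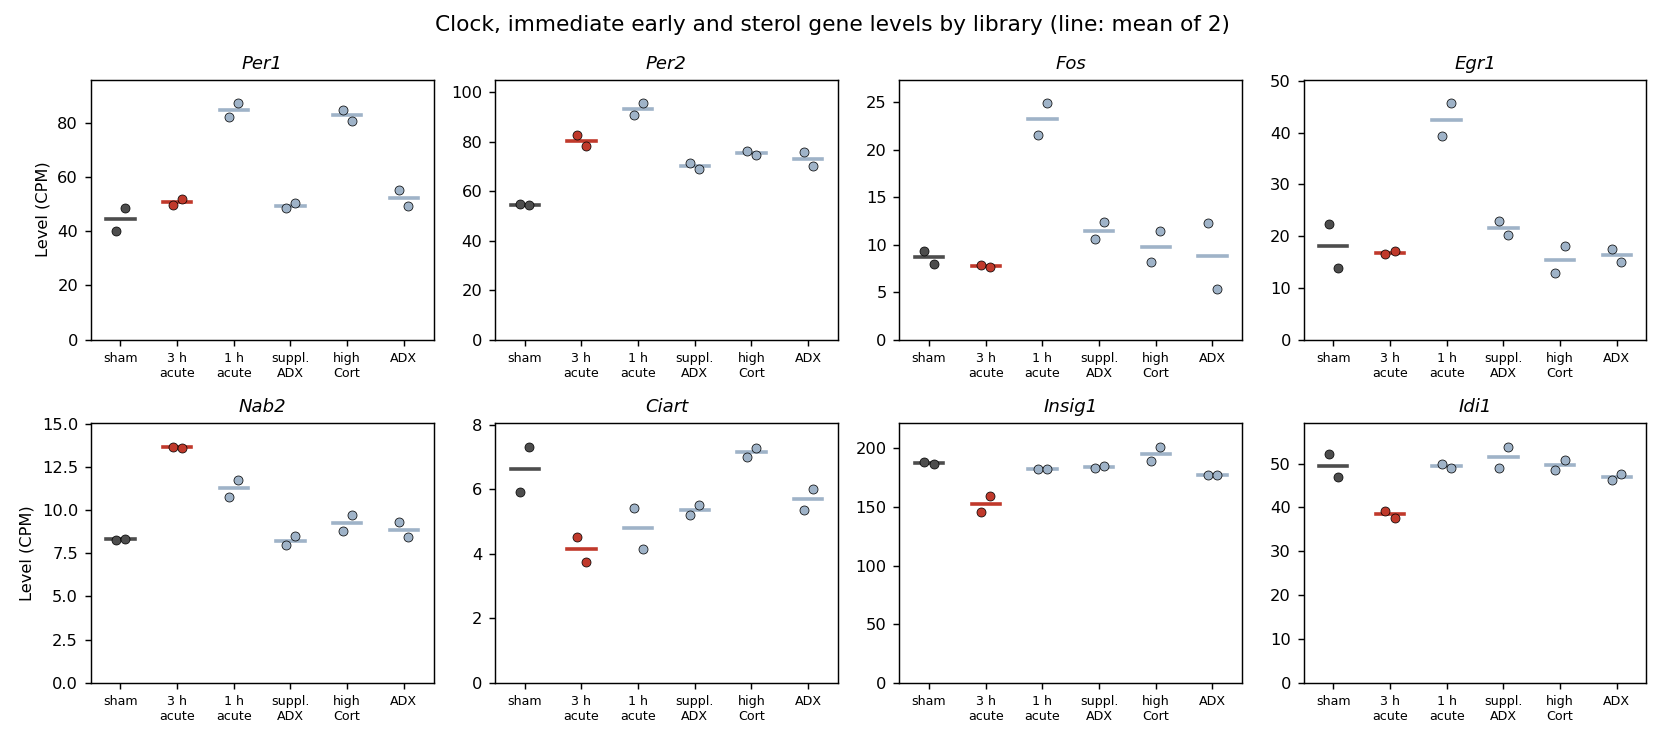
Levels in CPM (linear axes from 0) of Per1, Per2, Fos, Egr1, Nab2, Ciart, Insig1 and Idi1 in each of the 12 libraries (points; line, mean of 2). Per1, Fos and Egr1 are high at 1 h and near sham at 3 h, Nab2 is highest at 3 h with 13.7 and 13.6 CPM, and Insig1 is lowest at 3 h with 145 and 159 CPM.

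Most immediate early genes, which are transcribed within minutes of neuronal activation, were near the sham level at 3 h. Of 39 tested, 1 rose and 3 fell (10.3%, near the 7.98% of all genes), with a median log2 fold change of -0.02. Fos was at 9.37 and 7.98 CPM in sham and 7.86 and 7.66 CPM at 3 h (-0.16 ± 0.40, adjusted p = 0.86), after 21.5 and 24.9 CPM at 1 h. Egr1 was at 22.4 and 13.8 CPM against 16.5 and 17.0 CPM (-0.10 ± 0.25, adjusted p = 0.855), after 39.4 and 45.6 CPM at 1 h. The lower levels of Fos and Egr1 at 3 h than at 1 h did not pass the test (adjusted p = 0.233 and 0.174). Fosl2, a longer-lived Fos family member, rose from 5.02 and 6.29 CPM to 9.64 and 9.13 CPM (0.73 ± 0.18, adjusted p = 0.0269). The genes that fell were Klf6 (-0.45), Homer1 (-0.41) and Btg2 (-0.39). Without sham replicate 2 and without 3 h replicate 2 this list had 0 calls, without 3 h replicate 1 it had 1 higher and 1 lower, and Fosl2 lost the call in all 4 fits that left out 1 library (adjusted p from 0.0771 to 0.126).

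Nab2, a corepressor that binds Egr factors and is outside the lists, was the only gene called between 3 h and supplemented ADX (0.00778% of genes), where 1612 genes had an unadjusted p under 0.05. Its level was 8.28 and 8.34 CPM in sham, 7.96 and 8.48 CPM in supplemented ADX, 10.8 and 11.8 CPM at 1 h, and 13.7 and 13.6 CPM at 3 h. Both 3 h libraries were thus the highest, whichever run the other library came from. The log2 fold change was 0.72 ± 0.10 over sham (adjusted p = 0.00244) and 0.73 ± 0.09 over supplemented ADX (adjusted p = 0.0177). Against sham it stayed called whichever library was left out (adjusted p from 0.00537 to 0.0212), and lost it with the thalamus score as a covariate (0.60, adjusted p = 0.314). Among 18 genes of MAP kinase phosphatases and the Sprouty family, which dampen growth factor signalling, 2 rose and 2 fell (22.2%, beside 7.98% of all genes). Spred3 (0.60 ± 0.11, adjusted p = 0.00787) and Spry4 (0.34, adjusted p = 0.0251) rose, and Dusp6 (-0.47, adjusted p = 0.0322) and Dusp3 (-0.18, adjusted p = 0.0242) fell. This list had 0 calls without sham replicate 2 and 1 higher and 0 lower without either 3 h library.

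Some sterol genes fell at 3 h. Of 28 genes of cholesterol synthesis and its control, 6 fell and 0 rose, beside 4.57% of all genes called lower, while the median of the list was -0.03 and the other members did not pass. Insig1, the sterol-responsive protein that retains the sterol sensor in the endoplasmic reticulum, was at 189 and 187 CPM in sham and 145 and 159 CPM at 3 h (-0.30 ± 0.05, adjusted p = 0.00386). Idi1, an enzyme gene of the isoprenoid pathway, fell from 52.1 and 46.9 CPM to 39.3 and 37.5 CPM (-0.37 ± 0.07, adjusted p = 0.00752). Stard4, a cholesterol transport gene, fell from 42.3 and 40.7 CPM to 34.1 and 33.0 CPM (-0.31, adjusted p = 0.00745). Hsd17b7 (-0.45) and Nsdhl (-0.23), enzyme genes of cholesterol synthesis, fell as well.

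Insig1 and Idi1 stood at close levels in sham, 1 h and supplemented ADX and lower at 3 h. Insig1 was at 182 and 183 CPM at 1 h and at 183 and 185 CPM in supplemented ADX (3 h over supplemented ADX -0.27 ± 0.05, adjusted p = 0.0674). Idi1 was at 49.8 and 49.0 CPM at 1 h and at 49.0 and 53.9 CPM in supplemented ADX (-0.42 ± 0.07, adjusted p = 0.0674). With the thalamus score as a covariate no sterol gene was called, and the log2 fold changes were -0.30 for Insig1, -0.44 for Idi1 and -0.36 for Stard4. The list had 3 calls without sham replicate 2, without 3 h replicate 1 it had 3, without 3 h replicate 2 it had 1 (Insig1), and without sham replicate 1 it had 5, all lower. Insig1 stayed called whichever library was left out.

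Most glial and vascular lists had few or no calls. No astrocyte (15), pericyte (13), microglia (16), oligodendrocyte precursor (14) or myelin marker (15) was called by edgeR in the fit of all 12 libraries. In that order, 2, 1, 0, 7 and 2 of them had an unadjusted p under 0.05, beside 3217 of all 12856 genes. By DESeq2, 1 astrocyte marker was called higher and 1 oligodendrocyte precursor marker lower. The precursor list had 1 lower by limma-voom, 2 in the fit of the 4 libraries alone and 3 in the fit without the 1 h group. The myelin list had 1 lower in the fit of the 4 libraries alone and 1 in the fit without the 1 h group. The myelin list leaned low, with 1 positive log2 fold change of 15 and a median of -0.19. The precursor list leaned low too, with 4 positive of 14 and a median of -0.14. Among 21 endothelial markers 2 were called (9.52%, near the 7.98% of all genes): Vwf rose (0.22, adjusted p = 0.0407) and Slco1c1, a transporter gene of the blood-brain barrier, fell (-0.22, adjusted p = 0.0196), and each lost the call in all 4 fits that left out 1 library. Among 13 tanycyte and ependymal markers 2 were called (15.4%): Foxj1 rose (0.45, adjusted p = 0.0441) and Fabp7, a lipid-binding protein gene of radial glia and tanycytes, fell from 25.1 and 29.1 CPM to 15.9 and 18 CPM (-0.68 ± 0.10, adjusted p = 0.00279). Foxj1 lost the call whichever library was left out and with the replicate block, and its log2 fold change ran from 0.11 to 0.49. Fabp7 stayed called whichever library was left out. But it stood at 15.8 and 16.7 CPM in supplemented ADX and 15.3 and 17.8 CPM at 1 h, the level seen at 3 h.

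Hemoglobin genes of red blood cells differed as well. Hba2 rose from 17.7 and 14.5 CPM to 32.2 and 38.3 CPM (1.14 ± 0.17, adjusted p = 0.0083) and Hbb from 10.5 and 12.9 CPM to 16.8 and 20.3 CPM (0.66 ± 0.13, adjusted p = 0.0117). Hba1, a near-identical copy of Hba2 whose reads the counting could split, was at 7.22 and 13.1 CPM against 4.34 and 6.50 CPM and did not pass (-0.91, adjusted p = 0.309). The summed level of the blood cell genes was 37.0 and 42.6 CPM in sham and 55.9 and 68.6 CPM at 3 h, higher at 3 h than in any other library. Hba2 lost the call without sham replicate 2 and without 3 h replicate 2 (adjusted p = 0.0745 in each), and Hbb lost it without 3 h replicate 2 (adjusted p = 0.124). How much blood the tissue held and its part in other results was not tested.

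Within the run shared with supplemented ADX, no gene of any list was called, since Nab2 alone passed. For 3 h over 1 h, 3 genes were called (0.0233%), among which Per1 fell and Hbb rose (0.91 ± 0.14, adjusted p = 0.0413), and 1366 genes had an unadjusted p under 0.05. Each log2 fold change over supplemented ADX is set here beside that over sham. Insig1 (-0.27 beside -0.30), Idi1 (-0.42 beside -0.37), Nab2 (0.73 beside 0.72) and Zbtb16 (0.62 beside 0.71) were of similar size in both, whereas Penk (0.28 beside 0.77), Gal (0.19 beside 0.80), Fezf1 (0.43 beside 1.29) and Gabrd (-0.58 beside -1.58) were smaller. The 2 comparisons share the 3 h libraries, so their values are not independent, and the differences between them were not tested.

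**Figure D5:**
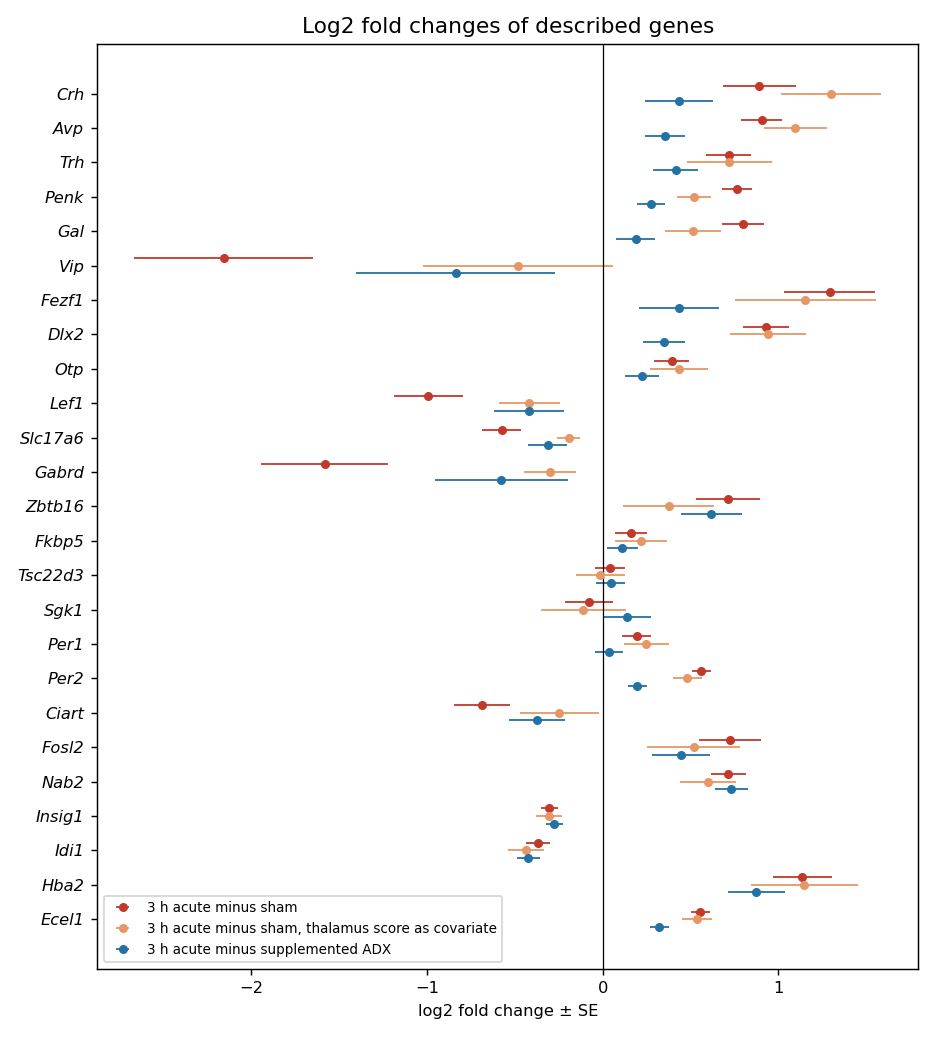
Log2 fold changes ± SE of 25 described genes for 3 h over sham (red), 3 h over sham with the thalamus score as a covariate (orange) and 3 h over supplemented ADX (blue). Nab2, Insig1 and Idi1 lie at similar values in all 3, while Vip, Gabrd and Lef1 lie nearer to 0 with the covariate and against supplemented ADX. Lef1 is among the markers that make up the thalamus score, so its shift with the covariate was partly fixed in advance.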

How the data were processed

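RNA from the dissected tissue was sequenced in 12 libraries made with a TruSeq RNA kit, per the labels' protocols. The submitters' processing notes name the genome build rn6 and the tools Cufflinks 2.2.1, TopHat2 2.1.1 and CASAVA 1.8.2. The gene annotation is not given in the sources used here. The authors deposited 1 Cuffdiff read group table per library. Its raw fragments are expected counts per gene, left unscaled by the authors per the file headers; the 0.751% that were not whole, spread over 233 genes, were rounded. The deposited FPKM values were scaled within 2 separate runs and were not used.

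The analysis of these counts used edgeR 4.0.16 (R 4.3.3). The low-count filter was filterByExpr with its defaults, a minimum count of 10 and a total of 15. Scaling was by TMM. A robust quasi-likelihood model of all 12 libraries had 1 coefficient for each of the 6 groups, 6 residual degrees of freedom and a median prior of 8.90. Tests were 2-sided, with Benjamini-Hochberg adjustment over 12856 genes. CPM values are counts scaled to the library total of the tested genes times the TMM factor of the library. Replicate pairs differed by more than counting noise in every group (chi-square per degree of freedom from 3.04 to 8.08), so each library was counted as 1 replicate. This does not show that the libraries came from separate RNA samples. Scripts were tested on simulated data.

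The text names genes from a rule: the top 15 called genes in each direction by log2 fold change, given non-overlapping groups and a mean log2 CPM of 1 or more, every called gene of 36 lists, the 2 members of smallest p of a list with no call, and always Fos, Egr1, Sgk1, Per1, Tsc22d3, Fkbp5, Nr3c2, Nr3c1, Trh, Oxt, Avp and Crh. Only part of these is described, and some items are not reported here. Nab2, Ecel1, Tmem132e, Prkcd, Tcf7l2, Sim1, Hba1, Cd36, Lmx1b and Pax7, and the printed promoters, were picked with their values in view. The members and lists were chosen with earlier results of these data known, and lists are described by counts and medians with no set test. Promoter sequences come from RefSeq (GRCr8), which held 10365 of the 12856 tested genes by symbol or by an unambiguous synonym.

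Alternatives were RLE size factors, no filter or a stricter filter, DESeq2 1.42.0, limma-voom (limma 3.58.1), fits of the 4 libraries alone or without the 1 h group, a replicate block, the thalamus score as a covariate, and leaving out each library in turn.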

Additional observations from a re-analysis of the deposited data

Results flagged for a closer look

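Differences between the time points after corticosterone in Per1 and Hbb passed the test of the difference itself, in the fit of all 12 libraries and within 1 quantification run. Per1 was lower at 3 h than at 1 h (-0.74), and Hbb was higher at 3 h (0.91). These values are log2 fold changes of 3 h over 1 h, tested by edgeR's quasi-likelihood test with Benjamini-Hochberg adjustment over all genes. With 2 libraries a group, no outlying library could be looked for gene by gene.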

How the results depend on the processing

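The count of 1026 called genes stayed between 692 and 1492 under 8 alternatives: RLE size factors, no filter, a stricter filter, DESeq2, limma-voom, the fit of the 4 libraries, the fit without the 1 h group and the replicate block. Of the 1026 genes, 563 (54.9%) were also called in the fit of the 4 libraries, 724 with the replicate block and 782 by DESeq2. Of 79 called genes named in the text, 21 lost the call in the fit of the 4 libraries, 19 with the replicate block and 10 with no filter. With the thalamus score as a covariate 78 lost it. Leaving out sham replicate 2 or either 3 h library took the call from more of them than the fit of the 4 libraries did. The block left 0 thalamus markers and 2 lower receptor subunit genes called. The thalamus score as a covariate left 4, where Ecel1 was the gene shared with the 1026. The count ranged from 75 to 1038 when 1 library was left out, which leaves a lone library assumed to vary like the other groups. The count of 20 genes differing at least 2-fold was 13 by DESeq2, which gave no adjusted p to 3739 genes, and 3 with the thalamus score. It ranged from 5 to 61 when 1 library was left out. The share of calls that were higher was 42.7%, against 50% without a filter, 57.3% without sham replicate 2, 75.2% without 3 h replicate 2 and 30.5% without 3 h replicate 1. The correlation of same-numbered deviations was -0.0526 between sham and 3 h, and ran from -0.38 to 0.148 over all pairs of groups. These values cannot settle if replicate numbers pair libraries. The fit with the replicate block called 731 genes, 15 of them at least 2-fold. Among 91 genes of the text followed through the fits, signs that changed belonged to uncalled genes. Leaving out 1 library, Egr1 ranged from -0.42 to 0.28 and Oxt from -0.048 to 0.75. With the thalamus score the values were -0.012 for Tsc22d3, 0.062 for Tcf7l2 and 0.44 for Hba1. Of the 1026 called genes, 1023 kept their direction in that fit. The cause was not tested. Only 2 libraries a group and a median SE of 0.066 for called genes limit what could be called.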
